A study of Homo sapiens with 6 samples.

Results

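The comparison described here set 5-fluoro-2'-deoxyuridine (5FdUR) directly against raltitrexed (RTX) in 4 of the 6 libraries of an RNA co-immunoprecipitation experiment on thymidylate synthase (TS). The cells were HCT116-UGI, from a colon adenocarcinoma line that lacks mismatch repair activity, and they carried UGI, a protein that blocks the uracil excision enzyme UNG. They received 20 µM 5FdUR for 48 h, 100 nM RTX for 48 h, or nothing (NT). From 1 lysate per treatment, in which cytoplasmic and nuclear extracts had been combined, 2 RNA fractions were sequenced. RIPctr was the RNA held by antibody-free Protein A/G beads during pre-clearing, and TS-RIP was the RNA recovered afterwards with an anti-TS antibody. The doses of the 2 drugs were not matched, RTX was dissolved in DMSO while NT cells received no solvent and that of 5FdUR is not given in the sources used here, and each treatment had 1 library per fraction, so drug, dose, solvent and lysate cannot be told apart. No replicate spread exists and no test between treatments was possible.

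To be counted as higher or lower in 5FdUR, a gene had to differ from RTX by 1 or more in log2(value + 100), with the same sign in both fractions. It also needed a mean of the 4 libraries above 1000. Values are scaled fragment counts without length correction and are printed in kF, where 1 kF is a value of 1000, and differences are 5FdUR minus RTX on the log2 scale. Of 42822 entries of the table, 12487 passed the level filter and are called the genes measured. As both fractions came from the same lysate, a difference seen in both is a repeated measurement of 1 pair of lysates and not of 2 independent treatments. Across all gene lists, 48 genes sat in an entry named for another gene and were left out of the list counts. Gene coordinates are those of GENCODE 44 on GRCh38. Intervals in brackets are 95% exact binomial intervals on fragments, which cover counting error only. They are intervals of the log2 ratio of values without the addition of 100, which at low levels departs from the printed difference.

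Cells that divide need thymidine nucleotides for DNA, and TS is the enzyme that methylates dUMP for this purpose. RTX is a folate analogue that blocks the enzyme, whereas 5FdUR is a nucleoside that cells phosphorylate to a form which binds TS covalently and which can also be incorporated into DNA. Stalled replication and damaged DNA activate the transcription factor p53, which raises genes for cell cycle arrest, apoptosis and repair. Through the arrest, E2F-driven genes for DNA synthesis and histone supply are held down.

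The 4 libraries held 7051104 (5FdUR RIPctr), 7903472 (RTX RIPctr), 10215667 (5FdUR TS-RIP) and 11042691 (RTX TS-RIP) fragments, and 1 fragment was worth between 96.4 and 136 units of value. The level filter of 1000 therefore corresponded to between 7.34 and 10.4 fragments. Of 10 colon epithelial markers, 7 were measured, with KRT8 and EPCAM among the high ones (279 kF in 5FdUR, against 269 kF in RTX for EPCAM in RIPctr), whereas the intestinal markers CDX1, VIL1 and LGALS4 stayed below the filter. Of 12 markers of fibroblasts, blood, endothelium and liver, 2 passed it, COL1A1 and VWF, and their list summed to 162 (RIPctr) and 112 (TS-RIP) fragments in the 5FdUR libraries, against 181 and 153 in the RTX libraries. The blood markers CD3E and HBB were at 0 in all 4 libraries.

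In both fractions at once, 130 genes were higher in 5FdUR (1.04% of those measured) and 44 were lower (0.352%). The counting interval left out 0 in each fraction for 110 of the 130 and 33 of the 44. These genes were chosen by size from the same fragments, so this is no independent support. The intervals are not corrected for the number of genes. Over all 12487 genes measured, they lay above 0 in both fractions for 1730 and below 0 in both for 1889. In such bulk lysates, fewer cells that carry a transcript and less of it per cell cannot be told apart. At the smaller limit of 1.5-fold, 516 genes were higher (4.13%) and 342 lower (2.74%). A total of 4730 genes lay above 0 in both fractions (37.9%) and 4626 below 0 in both (37%), and the median difference of all genes measured was 0.01 in RIPctr and 0.00 in TS-RIP. These shares over all genes measured are the background for the list counts given below. The 130 higher genes had a median value of 5178 in 5FdUR RIPctr, against 1991 in RTX RIPctr and 1139.8 in NT RIPctr. In TS-RIP their medians were 5232 in 5FdUR, 1927 in RTX and 1445 in NT. The 44 lower genes had medians of 3816 in 5FdUR RIPctr, 8960.1 in RTX RIPctr and 14988 in NT RIPctr, and TS-RIP medians of 1943 in 5FdUR, 5059 in RTX and 10753 in NT. Counted genes were thus mostly of low level: their median over the 4 libraries was 3635 for the higher and 4882 for the lower genes, against 27726 over all genes measured.

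Each fraction alone held more genes past the limit. In RIPctr 306 genes were higher and 161 lower, and in TS-RIP 350 were higher and 243 lower. The 130 shared genes were 42.5% of the higher genes in RIPctr and 37.1% of those in TS-RIP, and the 44 shared genes were 27.3% and 18.1% of the lower ones. Of the 306 genes higher in RIPctr, 271 were above 0 in TS-RIP, and of the 161 lower in RIPctr, 121 were below 0 in TS-RIP. Across genes, the differences in both fractions correlated with a Pearson r of 0.583 and a Spearman rho of 0.619 (12487 genes, which are not independent replicates). This r was 0.779 over the 9109 genes with a mean above 10 kF and 0.865 over the 2218 genes above 100 kF, so fractions were more alike where more fragments were counted. Among genes with a mean above 5000, the counted genes nearest to the limit were CPEB4 (1.00 and 1.15) and CPA4 (1.01 and 1.07) on the higher side, and those just outside it were ACHE (1.43 and 0.99) and HSPB8 (0.99 and 1.32), each pair of values for RIPctr and TS-RIP. On the lower side these were H6PD (-1.01 and -1.33) and CECR2 (-1.02 and -1.08) inside, and H2BU1 (-1.05 and -0.99) and GLI2 (-1.12 and -0.99) outside.

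**Figure D1:**
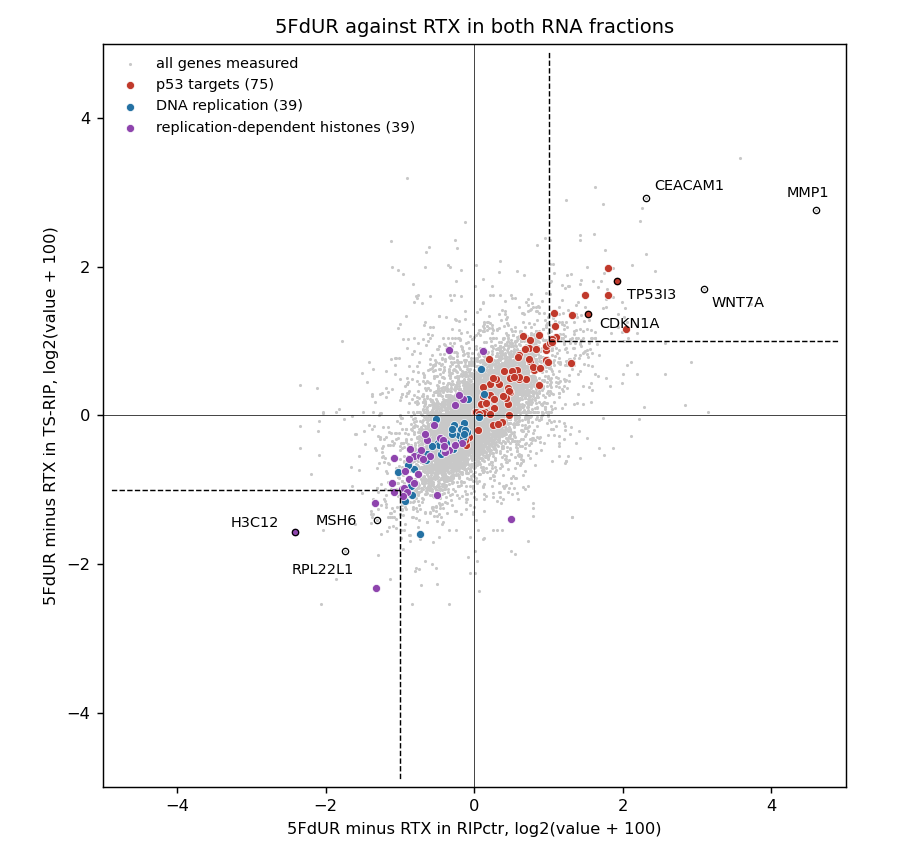
Difference between 5FdUR and RTX in RIPctr (x axis) and in TS-RIP (y axis), both log2 after addition of 100, with 1 point per gene measured (grey, 12487 genes). Coloured points are members of the p53 target, DNA replication and histone lists, dashed corners enclose the 130 higher and 44 lower genes, and p53 targets lie to the upper right while replication and histone genes lie to the lower left.

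The 12 protein-coding genes with the largest differences shared by both fractions, at a mean above 5000, were ranked by the smaller of their differences. CEACAM1, a cell adhesion receptor (chr19:42507304-42561234 on GRCh38), had 21.9 kF in 5FdUR, against 4.36 kF in RTX, in RIPctr and 24.9 kF in 5FdUR, against 3.18 kF in RTX, in TS-RIP. NT cells had 0.456 and 0.510 kF. The differences were 2.31 in RIPctr [1.80 to 2.90] and 2.93 in TS-RIP [2.44 to 3.54]. ABCA12, a lipid transporter of the skin barrier, had 25.8 kF in 5FdUR, against 5.10 kF in RTX, in RIPctr and 29.9 kF in 5FdUR, against 6.55 kF in RTX, in TS-RIP. SERPINA1, which encodes alpha-1-antitrypsin, had 31.3 kF in 5FdUR, against 7.09 kF in RTX, in RIPctr and 38.3 kF in 5FdUR, against 9.35 kF in RTX, in TS-RIP. NT cells had 5.93 and 6.38 kF of SERPINA1, and the RTX libraries of CEACAM1, ABCA12 and SERPINA1 lay between 5FdUR and NT in both fractions.

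LAMA3 and COL17A1 encode parts of the hemidesmosome and its laminin anchor, by which epithelial cells hold on to the basement membrane. LAMA3 (chr18:23689453-23956222), which encodes the laminin-332 alpha chain and is also a p53 target, had 113 kF in 5FdUR, against 32.4 kF in RTX, in RIPctr and 167 kF in 5FdUR, against 42.1 kF in RTX, in TS-RIP, with NT at 5.93 and 5.61 kF. Its differences were 1.80 [1.60 to 2.01] and 1.98 [1.83 to 2.14]. COL17A1, whose entry also holds the microRNA gene MIR936, had 53.3 kF in 5FdUR, against 15.3 kF in RTX, in RIPctr and 57.1 kF in 5FdUR, against 17.4 kF in RTX, in TS-RIP. Both genes were therefore more than 3 times as high in 5FdUR as in RTX in either fraction.

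TP53I3, a quinone oxidoreductase named for its induction by p53 (chr2:24077433-24085861), had 157 kF in 5FdUR, against 41.6 kF in RTX, in RIPctr and 194 kF in 5FdUR, against 55.1 kF in RTX, in TS-RIP, with 8.66 and 9.86 kF in NT. Its differences were 1.92 [1.74 to 2.10] and 1.81 [1.68 to 1.95]. CD82, a tetraspanin and p53 target, had 69.6 kF in 5FdUR, against 19.9 kF in RTX, in RIPctr and 88.8 kF in 5FdUR, against 28.8 kF in RTX, in TS-RIP. TP53I3 and CD82 had their lowest values in NT in both fractions.

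A further 4 of these 12 genes belonged to other pathways. WNT7A, a Wnt ligand, had 10.4 kF in 5FdUR, against 1.12 kF in RTX, in RIPctr and 13.7 kF in 5FdUR, against 4.14 kF in RTX, in TS-RIP, so its difference was larger in RIPctr (3.10 [2.21 to 4.39]) than in TS-RIP (1.70 [1.22 to 2.25]). CYP4F3, which inactivates leukotriene B4, differed by 1.71 in RIPctr and 1.80 in TS-RIP. ISG20, an interferon-induced RNA exonuclease, differed by 1.67 in RIPctr and 1.73 in TS-RIP, and SORCS2, a sortilin-family receptor, by 1.87 in RIPctr and 1.60 in TS-RIP. RTX values of CYP4F3, ISG20 and SORCS2 lay between 3.24 and 4.36 kF, against 10.5 to 16.2 kF in 5FdUR, over both fractions.

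**Figure D2:**
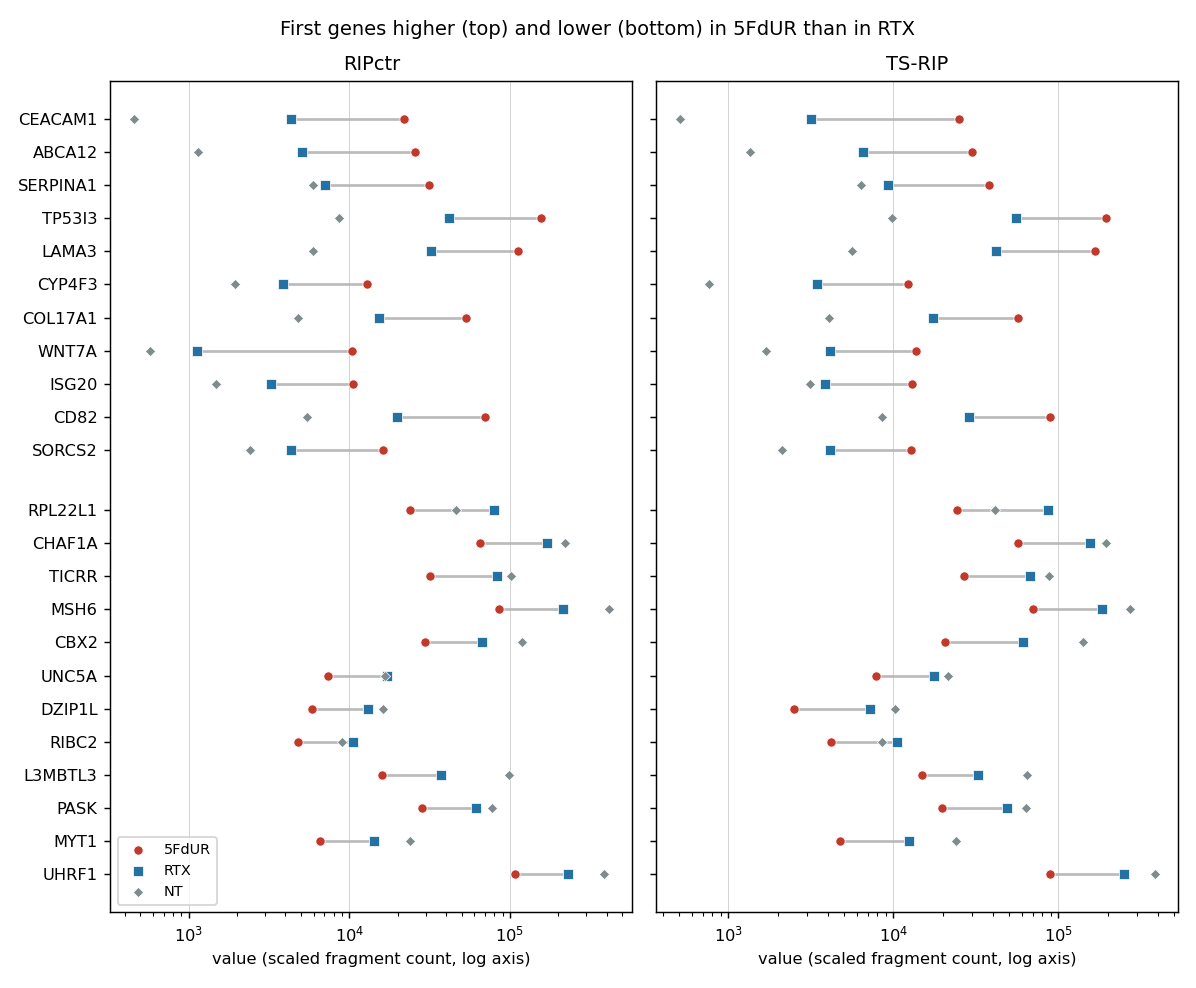
Values of 11 of the first 12 protein-coding genes higher in 5FdUR (top block) and the first 12 lower (bottom block) in RIPctr (left panel) and TS-RIP (right panel), on a log axis of scaled fragment counts, with 1 symbol per library (5FdUR, RTX, NT) and a grey line that joins 5FdUR to RTX. In RPL22L1 (46.4 kF in NT RIPctr) and RIBC2 the NT symbol lies between both drugs in both panels.

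The p53 target genes were higher in 5FdUR as a group, in both fractions. Over 4 lists of known targets with 75 measured genes in all, 11 were counted higher and 0 lower, 31 passed 1.5-fold upwards and 0 downwards, and 67 lay above 0 in both fractions. Over all genes measured, 1.04% were counted higher, 4.13% passed 1.5-fold upwards and 37.9% lay above 0 in both. The p53 lists had the following medians. The median of the 75 targets was 0.50 in RIPctr and 0.51 in TS-RIP, against 0.01 and 0.00 over all genes measured.

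Of the arrest and feedback targets, 3 of 19 were counted higher (median 0.61 in RIPctr and 0.61 in TS-RIP). CDKN1A (chr6:36676460-36687337) encodes p21, the inhibitor of cyclin-dependent kinases that carries out the p53-dependent arrest. It had 1068 kF in 5FdUR, against 369.6 kF in RTX, in RIPctr and 1294 kF in 5FdUR, against 503 kF in RTX, in TS-RIP, with 163 and 188 kF in NT, and had the highest level of the 19. Its differences were 1.53 [1.47 to 1.59] and 1.36 [1.32 to 1.41].

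MDM2, the ubiquitin ligase that degrades p53, had 583 kF in 5FdUR, against 275 kF in RTX, in RIPctr and 392.1 kF in 5FdUR, against 169.8 kF in RTX, in TS-RIP. In TS-RIP the RTX library of MDM2 lay below NT (192 kF), and in RIPctr above it (188 kF). ZMAT3, an RNA-binding target of p53, differed by 1.10 in RIPctr and 1.06 in TS-RIP. CCNG1, encoding cyclin G1, missed the limit at 0.97 in RIPctr and 0.94 in TS-RIP, and BTG2 (0.96 and 0.74), GDF15 (0.96 and 0.88) and TP53INP1 (0.88 and 1.09) were likewise above 0 in both fractions without being counted. RCHY1 (-0.11 and -0.39) and COP1 (-0.07 and -0.29), both ubiquitin ligases for p53, were the 2 of this list below 0 in both.

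Among cell death targets, 2 of 21 were counted higher, TP53I3 and the death receptor FAS (median 0.45 in RIPctr and 0.41 in TS-RIP). FAS had 45.5 kF in 5FdUR, against 21.7 kF in RTX, in RIPctr and 43.95 kF in 5FdUR, against 16.9 kF in RTX, in TS-RIP, with 4.10 and 3.83 kF in NT. Genes of the mitochondrial death pathway were above 0 with smaller differences, as in BAX (0.61 and 0.49), PMAIP1 (0.50 and 0.60) and BBC3 (0.46 and 0.16). SIVA1, another pro-apoptotic target, had 15.8 kF in 5FdUR, against 12.2 kF in RTX, in RIPctr and 14.8 kF in 5FdUR, against 15.7 kF in RTX, in TS-RIP. Its differences were 0.37 [-0.03 to 0.78] and -0.09 [-0.42 to 0.24], and both intervals held 0, so no direction can be given.

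Of the repair and metabolism targets, 2 of 18 were counted higher (median 0.54 in RIPctr and 0.51 in TS-RIP). These were TIGAR, a regulator of glycolysis, at 1.05 in RIPctr and 1.02 in TS-RIP, and ACER2, an alkaline ceramidase, at 1.32 in RIPctr and 1.35 in TS-RIP. The TIGAR entry also holds transcripts of the neighbouring CCND2, so its value cannot be given to 1 gene. RRM2B, the p53-inducible subunit of ribonucleotide reductase, came close at 1.01 in RIPctr and 0.97 in TS-RIP, whereas the excision repair genes XPC (0.16 and 0.17) and DDB2 (0.27 and 0.22) had small differences. Of the secreted and membrane targets 4 of 17 were counted higher (median 0.59 in RIPctr and 0.64 in TS-RIP), among them CD82, LAMA3 and IGFBP3, an insulin-like growth factor binding protein at 2.04 in RIPctr and 1.16 in TS-RIP.

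**Figure D3:**
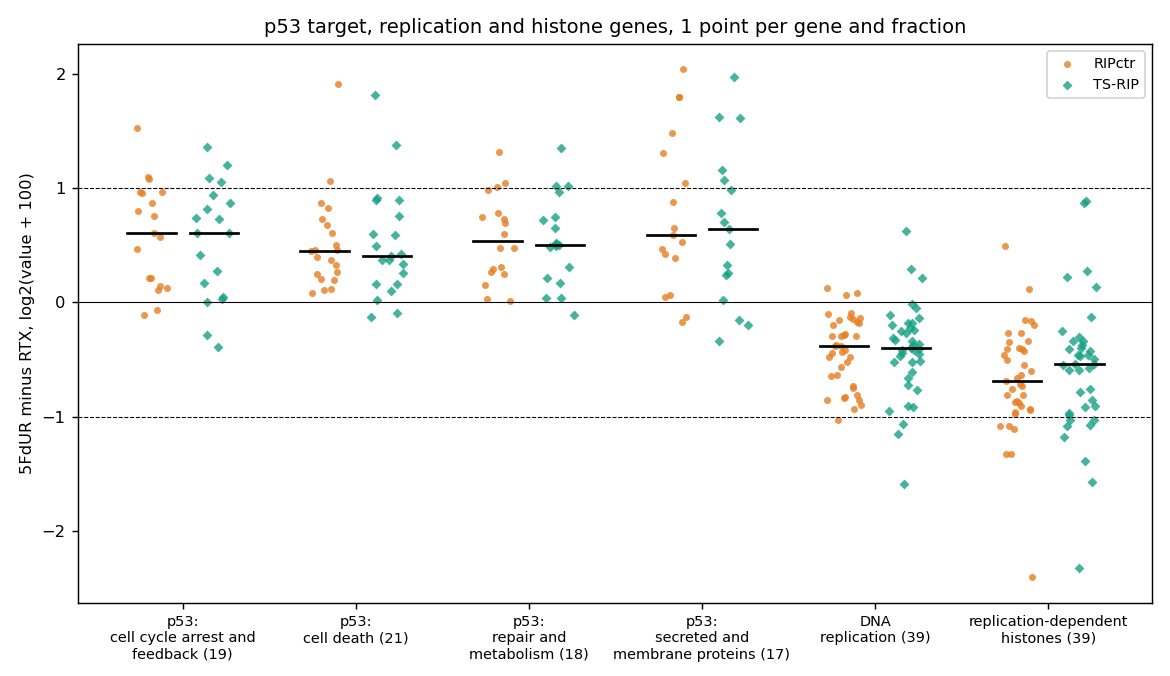
Differences between 5FdUR and RTX (log2, 100 added to each value) for the members of 4 p53 target lists, DNA replication and replication-dependent histones, with 1 point per gene in RIPctr (left of each pair) and TS-RIP (right), a black bar at the median and dashed lines at the counting limit. Medians of the p53 lists lie between 0.41 and 0.64, those of replication at -0.39 and -0.40 and those of histones at -0.69 and -0.54.

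One counted gene outside these lists carried 2 adjacent p53 half-sites, the canonical p53 response element, in its promoter window. PTCHD4, a patched-domain protein known as a p53 target, had 52 fragments in 5FdUR, against 13 in RTX, in RIPctr and 33 fragments in 5FdUR, against 16 in RTX, in TS-RIP (differences 2.06 and 1.05). The promoter is printed because it was the only one among the 97 higher genes found in the RefSeq promoter table with this motif. The motif was searched without mismatch or spacer in windows from 250 bases before to 50 after each start, and 6 of 35116 windows held it (0.0171%). Of the 60 genes of the p53 target lists found in the promoter table, 0 held it, and of 9677 genes measured, 2 did. The 250 bases before the start (GRCh38.p14, chr6:48111198-48111447, minus strand) are given with the match in capitals, 20 bases before the start.
PTCHD4: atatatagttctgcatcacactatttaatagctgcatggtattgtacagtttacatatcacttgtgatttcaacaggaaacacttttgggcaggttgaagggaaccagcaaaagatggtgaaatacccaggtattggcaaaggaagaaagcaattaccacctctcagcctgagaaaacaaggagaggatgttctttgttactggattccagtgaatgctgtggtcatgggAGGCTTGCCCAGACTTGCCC
The other measured gene with this motif was the lncRNA LNCTAM34A, which was not counted (1.39 and 0.56). Absence of these letters from the other windows says nothing about more distant or imperfect sites, and a match is not a measured binding site.

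On the lower side, DNA replication genes lay below RTX almost as a block but seldom by 2-fold. Of 39 measured, 0 were counted in either direction, 10 passed 1.5-fold downwards in both fractions and 35 lay below 0 in both (median -0.39 in RIPctr and -0.40 in TS-RIP). Over all genes measured, 2.74% passed 1.5-fold downwards and 37% lay below 0 in both. In the MCM helicase, MCM2 differed by -0.83 in RIPctr and -0.92 in TS-RIP, MCM3 by -0.86 in RIPctr and -0.91 in TS-RIP and MCM7 by -0.81 in RIPctr and -0.72 in TS-RIP. MCM7 had 444 kF in 5FdUR, against 778 kF in RTX, in RIPctr and 559.9 kF in 5FdUR, against 924 kF in RTX, in TS-RIP, with 899 and 759.8 kF in NT. The leading-strand polymerase subunits POLE (-0.84 and -1.07) and POLE2 (-0.94 and -1.15) and the checkpoint genes CLSPN (-1.03 and -0.77) and TIMELESS (-0.85 and -0.95) passed the limit in 1 fraction or came near it. PRIM1, a primase subunit, shares its entry with the abundant NACA and was at -0.09 and 0.22. The sliding clamp PCNA, also a p53 target, was above 0 at 0.13 in RIPctr and 0.29 in TS-RIP.

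Replication-dependent histone genes, which are expressed in S phase, had a median of -0.69 in RIPctr and -0.54 in TS-RIP. Of 39 measured, 4 were counted lower, 15 passed 1.5-fold downwards and 33 lay below 0 in both fractions. The shares over all genes measured were 0.352%, 2.74% and 37%. The counted histone genes were of low level: H3C12 had 8 fragments in 5FdUR, against 50 in RTX, in RIPctr and 13 fragments in 5FdUR, against 42 in RTX, in TS-RIP, and H2AC15 had 28 fragments in 5FdUR, against 78 in RTX, in RIPctr and 9 fragments in 5FdUR, against 51 in RTX, in TS-RIP. H3C1 differed by -1.33 in RIPctr and -1.18 in TS-RIP with an interval in TS-RIP that held 0 [-3.17 to 0.25], and H4C2 by -1.09 in RIPctr and -1.03 in TS-RIP. The linker histone genes H1-2 (-0.98 and -0.99) and H1-4 (-0.88 and -0.85) missed the limit narrowly. Histone genes share near-identical coding sequence, and the authors describe a filter for uniquely mapped reads, so values of single histone genes are uncertain.

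The 12 lower protein-coding genes with the largest shared differences and a mean above 5000 are given next. RPL22L1, a paralogue of ribosomal protein RPL22 (chr3:170864875-170870208), had 23.7 kF in 5FdUR, against 79.1 kF in RTX, in RIPctr and 24.4 kF in 5FdUR, against 86.4 kF in RTX, in TS-RIP, and its differences were -1.73 [-1.99 to -1.49] and -1.82 [-2.03 to -1.62]. Its NT values (46.4 and 41.7 kF) lay between both drugs in either fraction. CHAF1A, the large subunit of the chromatin assembly factor that deposits histones behind the replication fork (chr19:4402640-4445018), had 65.1 kF in 5FdUR, against 170.5 kF in RTX, in RIPctr and 57.4 kF in 5FdUR, against 157 kF in RTX, in TS-RIP. Its differences were -1.39 [-1.54 to -1.24] and -1.45 [-1.59 to -1.31].

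MSH6, a mismatch repair protein (chr2:47695530-47810063), had 86.1 kF in 5FdUR, against 214 kF in RTX, in RIPctr and 69.9 kF in 5FdUR, against 185 kF in RTX, in TS-RIP, with 413 and 274 kF in NT. UHRF1, which reads hemimethylated DNA and recruits the maintenance methyltransferase (chr19:4903080-4962154), had 107 kF in 5FdUR, against 229.6 kF in RTX, in RIPctr and 88.9 kF in 5FdUR, against 249.4 kF in RTX, in TS-RIP, with 388 and 385 kF in NT. Both genes had their highest value in NT and their lowest in 5FdUR in each fraction. TICRR, a regulator of replication initiation whose entry includes a transcript of 1 further gene, differed by -1.38 in RIPctr and -1.33 in TS-RIP, and CBX2, a Polycomb subunit, by -1.17 in RIPctr and -1.56 in TS-RIP. L3MBTL3, a reader of methylated lysines, differed by -1.21 in RIPctr and -1.13 in TS-RIP. The other members of the 12 were UNC5A (-1.20 and -1.15), a netrin receptor, DZIP1L (-1.14 and -1.50) and RIBC2 (-1.13 and -1.32), both ciliary proteins, the kinase PASK (-1.13 and -1.31) and the neural zinc finger factor MYT1 (-1.11 and -1.37).

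E2F sites are shown here because genes of DNA synthesis are classical E2F targets. The octamers, TTTGGCGC, TTTCCCGC, TTTGCCGC and TTTCGCGC, were searched on both strands in the same RefSeq windows, where octamers on opposite strands may overlap. They occurred in 3.31% of all 35116 windows, and at least 1 window of 6.88% of the 9677 genes measured with an entry in the promoter table held one. Of the 33 lower genes with an entry, 5 held one (15.2%): H4C2, MSH6, SRRM2-AS1, SYCE2 and UHRF1. Of the 97 higher genes, 1 did (1.03%), MDM2. Of 32 DNA replication genes, 18 did (56.2%), and of 35 histone genes, 11 (31.4%). The share was 10% in the p53 target lists (6 of 60) and 11.1% in the G2/M list (3 of 27). It was 27.8% in mismatch and base excision repair (5 of 18). In the chromatin assembly list, chosen after seeing the data, it was 23.8% (5 of 21). Whether the octamers bear on the differences was not tested. The 30 bases around the match (capitals) are printed 5′ to 3′ on the strand of the gene for 2 counted genes and 3 replication genes.
UHRF1: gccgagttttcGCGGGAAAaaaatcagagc
MSH6: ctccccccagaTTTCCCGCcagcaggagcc
MCM7: cagctcggaccGCGGGAAAcccggcgcctg
MCM2: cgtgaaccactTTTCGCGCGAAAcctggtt
CDC6: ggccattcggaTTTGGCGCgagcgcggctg
UHRF1 lies at chr19:4909476-4909505 (plus strand), MSH6 at chr2:47783137-47783166 (plus strand), MCM7 at chr7:100101566-100101595 (minus strand), MCM2 at chr3:127598402-127598431 (plus strand) and CDC6 at chr17:40287875-40287904 (plus strand), all on GRCh38.p14. In MCM2 the capitals mark 2 matches on opposite strands that overlap. The matches are letters in a window, and no factor was measured here.

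Of 23 mismatch and base excision repair genes measured, 1 was counted lower, MSH6, and 15 lay below 0 in both fractions (median -0.21 in RIPctr and -0.27 in TS-RIP). Over all genes measured, 0.352% were counted lower and 37% lay below 0 in both. UNG, whose enzyme is the target of UGI, had 91.4 kF in 5FdUR, against 139 kF in RTX, in RIPctr and 102 kF in 5FdUR, against 155 kF in RTX, in TS-RIP, a difference of -0.61 in RIPctr and -0.60 in TS-RIP. In homologous recombination and the Fanconi pathway 1 of 30 was lower, the BLM helicase (-1.30 and -1.03), with medians of -0.28 in RIPctr and -0.22 in TS-RIP.

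TYMS, the gene of the drug target (chr18:657653-673578), had 195 kF in 5FdUR, against 249.8 kF in RTX, in RIPctr and 200.6 kF in 5FdUR, against 292 kF in RTX, in TS-RIP. Its differences were -0.36 [-0.46 to -0.26] and -0.54 [-0.62 to -0.46], so it was lower in 5FdUR in both fractions without reaching the limit. NT cells had 124 and 133 kF, below both drugs. Of 33 folate and nucleotide genes, 0 were counted and the medians were -0.10 in RIPctr and -0.07 in TS-RIP. The salvage kinase TK1 was at -0.07 and -0.10, and RRM2, the S phase subunit of ribonucleotide reductase, differed by -0.47 in RIPctr and -0.55 in TS-RIP. NME1, a nucleoside diphosphate kinase in an entry shared with NME2, was at 0.20 and 0.22. UPP1, a uridine phosphorylase (0.83 and 0.72), CDA, cytidine deaminase (0.96 and 0.66), and RRM2B were the 3 of this list past 1.5-fold upwards.

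The cell cycle lists were not uniform. Of 32 G2/M genes, 1 was counted, ESPL1, the separase that opens sister chromatids, with 39.0 kF in 5FdUR, against 80.8 kF in RTX, in RIPctr and 25.5 kF in 5FdUR, against 73.4 kF in RTX, in TS-RIP. Medians were -0.11 in RIPctr and -0.04 in TS-RIP, and CCNB1 (0.01 and 0.19) and CDK1 (0.07 and 0.11), the kinase that starts mitosis with its cyclin, were near 0. Among 23 G1 and S phase regulators 0 were counted (medians -0.07 in RIPctr and -0.10 in TS-RIP). The activating E2F genes E2F1 (-0.56 and -1.08) and E2F2 (-0.86 and -1.61) were below 0, and CDKN2B, an inhibitor of CDK4 and CDK6, was above it (0.65 and 0.81). CCND1 (0.18 and 0.06) and MYBL2 (0.00 and -0.37) had the highest levels of that list, followed by CDK2 (0.07 and 0.02).

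MYC itself had 223 kF in 5FdUR, against 214 kF in RTX, in RIPctr and 217 kF in 5FdUR, against 235 kF in RTX, in TS-RIP, a difference of 0.06 in RIPctr and -0.11 in TS-RIP. NT cells had 579 and 618 kF. In the list of MYC partners and ribosome biogenesis 0 of 28 were counted and the medians were -0.25 in RIPctr and -0.25 in TS-RIP. NOP2, a nucleolar methyltransferase in an entry shared with CHD4, was at -0.36 and -0.39. The nucleolar proteins NCL (-0.80 and -0.72) and NOLC1 (-0.54 and -0.67) and the RNA polymerase I factor UBTF (-0.84 and -0.90) were below 0 in both fractions. Cytosolic ribosomal protein genes went the other way, with medians of 0.26 in RIPctr and 0.15 in TS-RIP and 68 of 77 above 0 in both fractions, although the single counted member, RPL22L1, was lower. Over all genes measured, 37.9% lay above 0 in both.

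Genes of epithelial structure, the extracellular matrix and growth arrest supplied further higher genes. Of 17 laminins and integrins 1 was counted, LAMA3, while LAMB3, which encodes the laminin-332 beta chain, was at 1.11 and 0.84. Among keratins and tight junction genes 1 of 22 was counted, KRT17, a basal keratin with 7 fragments in 5FdUR, against 1 in RTX, in RIPctr and 29 fragments in 5FdUR, against 4 in RTX, in TS-RIP. Its RIPctr interval held 0 [-0.02 to 8.43]. KRT17 passed the level filter through 5FdUR alone, with RTX at 0.124 kF in RIPctr and 0.385 kF in TS-RIP. In the mesenchymal list 2 of 11 were counted and 8 lay above 0 in both (medians 0.57 in RIPctr and 0.60 in TS-RIP). Over all genes measured, 1.04% were counted higher and 37.9% lay above 0 in both. The counted mesenchymal genes were ACTA2, smooth muscle actin, at 1.06 in RIPctr and 1.31 in TS-RIP, and SNAI2, a repressor of epithelial genes, at 1.02 in RIPctr and 2.36 in TS-RIP with 10 fragments in 5FdUR, against 5 in RTX, in RIPctr, where the interval held 0 [-0.55 to 3.03]. SNAI2 also passed the level filter through 5FdUR alone, with RTX at 0.622 kF in RIPctr and 0.385 kF in TS-RIP. ACTA2 overlaps FAS on the opposite strand, and reads were assigned with strand.

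In the senescence list 2 of 16 were higher and 1 lower (medians 0.36 in RIPctr and 0.47 in TS-RIP). The higher ones included the collagenase MMP1, which had 17 fragments in 5FdUR, against 0 in RTX, in RIPctr and 19 fragments in 5FdUR, against 2 in RTX, in TS-RIP. MMP1 passed the level filter through 5FdUR alone, with RTX at 0 in RIPctr and 0.193 kF in TS-RIP. LMNB1, the nuclear lamin whose loss marks senescent cells, was lower, with 119.9 kF in 5FdUR, against 272 kF in RTX, in RIPctr and 119 kF in 5FdUR, against 250.3 kF in RTX, in TS-RIP. NT cells had 444 and 363 kF. The protease inhibitor TIMP1 (0.94 and 0.96) and the cytokine GDF15 came close to the limit on the higher side.

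Of 27 Wnt genes 1 was higher, WNT7A, and 1 lower, WNT6 (-1.14 and -1.37), and the medians were -0.09 in RIPctr and -0.10 in TS-RIP. WNT6 rested on 5 fragments in 5FdUR, against 13 in RTX, in RIPctr [-3.09 to 0.33] and 5 fragments in 5FdUR, against 15 in RTX, in TS-RIP, and its RIPctr interval held 0. The Wnt target AXIN2 was at -0.31 and -0.36. Of 21 interferon-stimulated genes 2 were higher, ISG20 and ISG15 (medians 0.20 in RIPctr and 0.26 in TS-RIP). ISG15, a ubiquitin-like modifier and 1 of the transcripts known to be bound by TS, had 159.8 kF in 5FdUR, against 67.3 kF in RTX, in RIPctr and 205 kF in 5FdUR, against 90.1 kF in RTX, in TS-RIP, with 36.0 and 33.2 kF in NT. Its list was split, since IFI6 (0.91 and 0.65) and OASL (0.70 and 0.76) were above 0, whereas the interferon signalling factor STAT2 (-0.53 and -0.66) was below it.

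Single members were counted in further signalling lists. They were BIRC3, an inhibitor of apoptosis induced by NF-kB (1.07 and 1.92), the orphan receptor NR4A3 among immediate early genes (1.07 and 2.04), and DUSP14, a MAP kinase phosphatase (1.21 and 1.17). NUPR1, a stress-induced chromatin protein in the integrated stress response list, differed by 1.73 in RIPctr and 2.85 in TS-RIP. Its RTX values were 0.996 kF in RIPctr and 0.482 kF in TS-RIP, so it passed the level filter through 5FdUR alone. The remaining stress response genes had no such difference, as the medians of that list were 0.04 in RIPctr and 0.02 in TS-RIP and ATF4, its central factor, was at 0.14 and 0.15. Of the numbered ZNF genes, 1 was higher, ZNF654 (1.01 and 1.03), and 1 lower, ZNF704 (-1.06 and -1.39), out of 317, with medians of 0.01 in RIPctr and 0.02 in TS-RIP. Of 25 measured ephrin, semaphorin and notch genes and 21 nuclear receptor genes, 0 were counted. The highest levels in these lists were those of the receptors EPHA2 (0.53 and 0.51) and NOTCH2 (0.28 and 0.23) and of CYP24A1, the vitamin D hydroxylase (-0.16 and -0.27). NR2F1, an orphan nuclear receptor, missed the limit in RIPctr only (-0.98 and -1.26), and its NT values were 517 and 580.3 kF.

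Further counted genes are named here for their level, chosen after their values were seen, as were the uncounted list members with values in this text. S100A6, a calcium-binding protein and the most abundant counted gene, had 1269 kF in 5FdUR, against 623 kF in RTX, in RIPctr and 1503 kF in 5FdUR, against 648 kF in RTX, in TS-RIP, with 432 and 498 kF in NT. SULF2, a sulfatase that edits heparan sulfate, differed by 1.19 in RIPctr and 1.10 in TS-RIP, and ADGRG1, an adhesion receptor, by 1.03 in RIPctr and 1.03 in TS-RIP. PTGES, which makes prostaglandin E2, had 47.1 kF in 5FdUR, against 23.4 kF in RTX, in RIPctr and 64.7 kF in 5FdUR, against 25.2 kF in RTX, in TS-RIP. AQP3, a channel for water and glycerol, differed by 1.51 in RIPctr and 1.39 in TS-RIP.

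ABCA1, the cholesterol exporter, had 27.8 kF in 5FdUR, against 10.7 kF in RTX, in RIPctr and 26.5 kF in 5FdUR, against 11.9 kF in RTX, in TS-RIP. ANGPTL4, a secreted inhibitor of lipoprotein lipase, had 32.6 kF in 5FdUR, against 12.8 kF in RTX, in RIPctr and 30.1 kF in 5FdUR, against 14.0 kF in RTX, in TS-RIP, and GRAMD1B, a carrier of cholesterol to the ER, differed by 1.37 in RIPctr and 1.48 in TS-RIP. PRDM1, a transcriptional repressor, differed by 1.15 in RIPctr and 1.10 in TS-RIP. On the lower side SH3PXD2B, a scaffold of invasive cell protrusions, had 72.0 kF in 5FdUR, against 152 kF in RTX, in RIPctr and 54.8 kF in 5FdUR, against 142 kF in RTX, in TS-RIP, and GNG7, a G protein subunit, differed by -1.04 in RIPctr and -1.24 in TS-RIP. Of all 174 counted genes, S100A6 alone exceeded a mean of 1000 kF.

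The lists of lipid synthesis, glycolysis, translation, chaperones, proteasome and autophagy held 0 counted genes, and several had medians off 0. Autophagy and lysosome genes were above it (medians 0.39 in RIPctr and 0.29 in TS-RIP, 17 of 22 above 0 in both, against 37.9% of all genes measured), as in SQSTM1, the autophagy receptor (0.46 and 0.34), and the protease CTSB (0.51 and 0.37). Sterol and fatty acid synthesis genes were below it (medians -0.23 in RIPctr and -0.29 in TS-RIP, 20 of 24 below 0 in both, against 37% of all genes measured), as in FASN, the fatty acid synthase (-0.39 and -0.66). Cytosolic heat shock genes were also below it (medians -0.27 in RIPctr and -0.24 in TS-RIP), with HSP90AB1 at -0.43 in RIPctr and -0.41 in TS-RIP. ER chaperones (0.05 in RIPctr and 0.05 in TS-RIP), proteasome subunits (0.09 in RIPctr and 0.11 in TS-RIP), glycolysis (0.00 in RIPctr and -0.05 in TS-RIP) and translation factors (-0.01 in RIPctr and -0.05 in TS-RIP) had medians nearer to 0. The members with the highest levels had small differences. They were the glycolytic enzymes ENO1 (-0.18 and -0.32) and PKM (0.16 and 0.07), the ER proteins HSP90B1 (0.01 and 0.10) and P4HB (0.02 and -0.11), the proteasome ATPase PSMC3 (-0.09 and -0.07) and subunit PSMD2 (0.03 and -0.10), the elongation factors EEF2 (0.17 and -0.09) and EEF1A1 (0.23 and 0.09), the desaturase SCD (-0.12 and -0.19) and the heat shock protein HSP90AA1 (-0.41 and -0.22). CALR, the ER chaperone calreticulin, had 1133 kF in 5FdUR, against 1071 kF in RTX, in RIPctr and 1393 kF in 5FdUR, against 1348 kF in RTX, in TS-RIP, while NT had 337 and 410.5 kF.

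**Figure D4:**
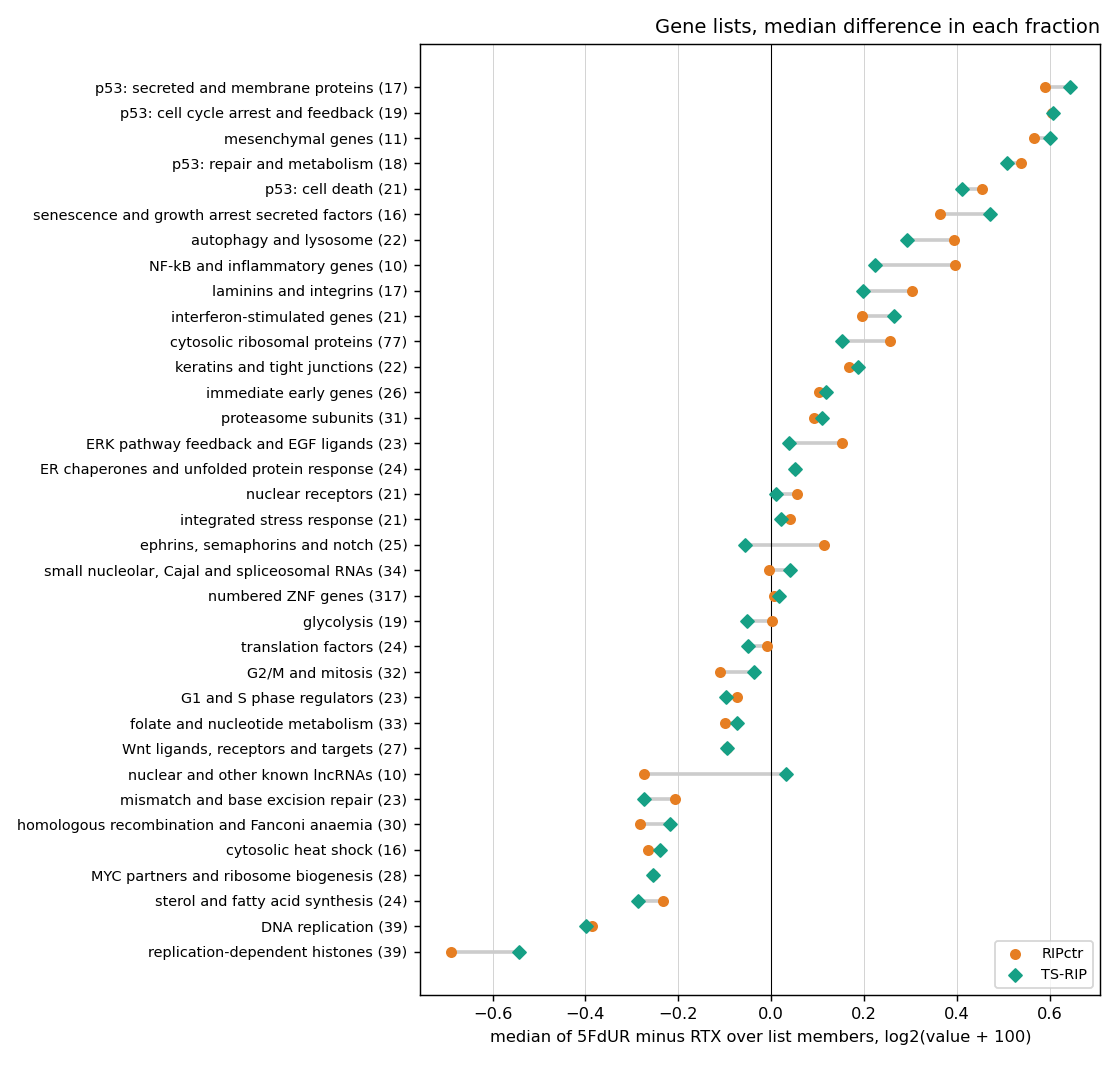
Median difference between 5FdUR and RTX (log2, 100 added to each value) over the measured members of each gene list with at least 10 measured, in RIPctr (circles) and TS-RIP (diamonds), with the number measured in brackets. The 4 p53 lists and the mesenchymal list lie to the right at 0.41 or more, and replication genes (-0.39 and -0.40) and histones (-0.69 and -0.54) lie to the left.

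By gene type, 113 of the 130 higher and 36 of the 44 lower genes were protein-coding, out of 11707 measured. Of 678 lncRNAs 15 were higher (2.21%) and 8 lower (1.18%), against 0.965% and 0.308% of protein-coding genes. Most were of low level, and 6 of these 23 lncRNAs also passed an exact binomial test of the fragments, which compares the libraries and not the treatments. The first higher lncRNAs were AP002761.4 (1.49 and 1.46), UNC5B-AS1 (1.27 and 1.74), MRPS30-DT (1.18 and 1.56), ZNF561-AS1 (1.47 and 1.04) and LINP1 (1.22 and 1.07), whose entry merges several lncRNA genes. AP002761.4 had 6.13 kF in 5FdUR, against 2.12 kF in RTX, in RIPctr and 7.57 kF in 5FdUR, against 2.70 kF in RTX, in TS-RIP. The lower lncRNAs with a mean above 2000 were AC010536.1 (-1.37 and -1.32), AC125807.2 (-1.25 and -1.20) and DANT2 (-1.08 and -1.28), which had 1 fragment in 5FdUR, against 4 in RTX, in TS-RIP. An snRNA entry, RNU1-3, was also higher (1.29 and 1.01), and it has near-identical U1 copies elsewhere. The 1 counted entry typed as miRNA merges a miRNA gene with its host H19 and is not a mature miRNA.

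Nuclear lncRNAs differed between the fractions. MALAT1 had 6285 kF in 5FdUR, against 10228 kF in RTX, in RIPctr and 132 kF in 5FdUR, against 131 kF in RTX, in TS-RIP, so it was lower in 5FdUR in RIPctr (-0.70 [-0.72 to -0.69]) and near 0 in TS-RIP (0.01 [-0.10 to 0.12]). NEAT1 had 1321 kF in 5FdUR, against 1558 kF in RTX, in RIPctr and 20.6 kF in 5FdUR, against 19.9 kF in RTX, in TS-RIP. Of 3 measured p53-linked lncRNAs, 0 were counted, with MIR4435-2HG at 0.19 in RIPctr and 0.09 in TS-RIP and RMRP at -0.27 in RIPctr and 0.06 in TS-RIP. The third, MIR22HG, passed 1.5-fold upwards (0.60 and 0.96) with 17 fragments in 5FdUR, against 12 in RTX, in RIPctr and 16 fragments in 5FdUR, against 8 in RTX, in TS-RIP, and its entry holds transcripts of 1 further gene. MALAT1 and NEAT1 were far lower in TS-RIP than in RIPctr under both drugs. RN7SL1 and RN7SL2 encode the RNA of the signal recognition particle and were among the RNAs listed as bound by TS. RN7SL1 had 7548 kF in 5FdUR, against 1892 kF in RTX, in RIPctr and 3863 kF in 5FdUR, against 2636 kF in RTX, in TS-RIP. RN7SL2 differed by 2.19 in RIPctr and 0.56 in TS-RIP. These are near-identical multicopy genes, and MALAT1, RN7SL1 and RN7SL2 were not counted in either direction.

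Of 8 known TS-bound RNAs, all measured, 1 was counted, ISG15, and 5 lay above 0 in both fractions. Besides TYMS, MYC, RN7SL1 and RN7SL2, the list includes KIF5B (-0.09 and -0.09) and ZNF460 (0.36 and 0.10). CELF1, an RNA-binding regulator of CDKN1A translation, had 228 kF in 5FdUR, against 278 kF in RTX, in RIPctr and 232 kF in 5FdUR, against 279 kF in RTX, in TS-RIP, a difference of -0.28 in RIPctr and -0.27 in TS-RIP. Of 11 APOBEC and ADAR deaminases 4 were measured and 0 counted, and 4 sat in an entry of another name, with APOBEC3F at -0.01 in RIPctr and 0.20 in TS-RIP and ADAR at -0.09 in RIPctr and -0.16 in TS-RIP.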

How the data were processed

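The authors depleted rRNA, trimmed reads with fastp, filtered out rRNA reads (BWA) and aligned the rest to GRCh38 with HISAT2. They describe a filter for uniquely mapped reads, set at a mapping quality of 1 or more. They quantified GENCODE 34 genes with strand in the Cufflinks suite, with geometric library scaling and no length correction, and tool versions are not given in the sources used here. The study named the values FPKM, but the deposited values are signal, namely scaled fragment counts: below 200 fragments, 100% of values were whole multiples of 1 step per library within 0.05 fragments. Fragments and counting intervals were computed from that step. A further 25 numeric columns of the table were not used. Gene types are those of the authors' own GENCODE 34 annotation. Gene coordinates and the genes held by each entry came from GENCODE 44, and promoters from RefSeq (GRCh38.p14).

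Differences were computed with Python 3.11.15, pandas 2.3.3 and SciPy 1.17.1, and the scripts were checked on simulated data. Ranked by the smaller of both absolute differences, the text names the 12 first protein-coding genes per direction above 5000, the 5 first lncRNAs above 2000, up to 4 counted members per list and 15 preset genes. Some genes that this rule names are not reported here. In lists without a counted member, the 2 with the highest level were preset. Members and lists were chosen with earlier results of these data known. Further names, 4 of 42 lists and 2 alternatives were chosen after seeing the data. A random 50% subsample by the authors served as an alternative depth only.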

Additional observations from a re-analysis of the deposited data

Results flagged for a closer look

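At 7 genes measured, 5FdUR and RTX differed by 2-fold or more in opposite directions in the 2 fractions, and the difference between the fractions was not tested. On the log2 scale, the TS-RIP difference minus the RIPctr difference was 2.24 for CSKMT, 3.10 for AC005921.4, 2.21 for CACNG8 (an entry shared with MIR935), 3.47 for AC092944.1 and 2.99 for AC002467.1, all higher in 5FdUR in TS-RIP and lower in RIPctr. It was -2.68 for RN7SL606P and RN7SL448P, which hold identical values. CSKMT had 6 fragments in 5FdUR, against 14 in RTX, in RIPctr and 15 fragments in 5FdUR, against 6 in RTX, in TS-RIP. The most abundant of them, AC005921.4, had 28 fragments in 5FdUR, against 67 in RTX, in RIPctr and 3 fragments in 5FdUR, against 0 in RTX, in TS-RIP, so these genes rest on few fragments.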

How the results depend on the processing

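The 130 higher and 44 lower genes became 57 and 20 with a pseudocount of 1000, 542 and 258 without the level filter, 51 and 21 above a mean of 5000, and 516 and 342 at a limit of 1.5-fold. RIPctr alone gave 306 and 161 genes, and TS-RIP alone 350 and 243. Where an exact binomial test of fragments was added, 97 and 26 remained. Counts stayed within 1.5 times with a pseudocount of 10 (142 and 52), the same total per library (154 and 39), a median difference set to 0 (128 and 44), a counting interval apart from 0 (110 and 33), entries of 1 gene (122 and 42) and the 50% subsample (142 and 63, of which 82 and 25 were shared with the 130 and 44). The 35 counted list members became 144 at 1.5-fold, 59 in RIPctr alone and 72 in TS-RIP alone. The 149 protein-coding genes became 74 with a pseudocount of 1000, 457 without the filter, 70 above 5000, 759 at 1.5-fold, 367 in RIPctr alone and 451 in TS-RIP alone. The 23 lncRNAs became 2, 313, 1, 88, 84 and 117 under the same 6 settings, 6 with the binomial test and 15 with the counting interval. The r of 0.583 between fractions was 0.533 with a pseudocount of 10, 0.662 with 1000 and 0.439 in the subsample. Direction was checked for the 65 named counted genes only, on the mean of both fractions under the settings that shift values. None of these 65 changed sign. They were chosen for a difference of 1 or more in the same libraries, so a change of sign was hardly possible. This outcome is therefore no support for them. Of the 65, 31 were counted under all 13 settings, but settings with a looser rule hold all 130 and 44 genes by construction. List medians (mean of both fractions) near 0 changed sign: glycolysis was at 0.02 instead of -0.02 and translation factors at 0.02 instead of -0.03 with the same total per library, as MYC was (0.02 instead of -0.03), and the integrated stress response was at -0.02 instead of 0.03 and small nucleolar RNAs at -0.04 instead of 0.02 in the subsample. The cause of these shifts was not tested, beyond the fewer or more genes that a filter or limit admits. No paired analysis was possible because each treatment had 1 library per fraction. Depth limited genes near the filter, where 1000 units were about 7.34 to 10.4 fragments.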

Other observations

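The gene groups below were assembled after their members had been seen among the counted genes, so their counts describe how they were chosen and support nothing. Of 11 measured genes usually described in leukocytes, 9 were higher in 5FdUR. PTAFR, the receptor of platelet-activating factor, had 368 fragments in 5FdUR, against 117 in RTX, in RIPctr and 507 fragments in 5FdUR, against 190 in RTX, in TS-RIP. INPP5D, the lipid phosphatase SHIP1, had 307 fragments in 5FdUR, against 120 in RTX, in RIPctr and 452 fragments in 5FdUR, against 194 in RTX, in TS-RIP. CD274, which encodes PD-L1, had 37 fragments in 5FdUR, against 16 in RTX, in RIPctr and 39 fragments in 5FdUR, against 10 in RTX, in TS-RIP. The pan-leukocyte marker PTPRC had 3 fragments or fewer in each library, and CD3E was at 0.

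Of 24 measured genes of hemidesmosomes and stratified epithelium, 8 were higher and 0 lower. Besides LAMA3, COL17A1, ABCA12, AQP3 and KRT17 they included TRIM29 (1.76 and 2.23 in RIPctr and TS-RIP) and the cadherin FAT2 (1.42 and 1.77). The desmosome genes DSP (-0.14 and -0.03) and DSG2 (0.09 and 0.13) and the hemidesmosomal integrin ITGB4 (0.15 and 0.01), which were more abundant, lay near 0. Of 13 serpins, 3 were higher, among them SERPINA1 and SERPINB8 (1.58 and 1.04), and SERPINB5, a p53 target, missed the limit in TS-RIP (1.05 and 0.98).

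Of 23 genes for chromatin assembly and DNA methylation upkeep, 6 were lower, 0 higher and 21 below 0 in both fractions. DNMT1, the maintenance methyltransferase, had 665 kF in 5FdUR, against 1077 kF in RTX, in RIPctr and 834 kF in 5FdUR, against 1353 kF in RTX, in TS-RIP, and so lay below RTX without being counted. TONSL, a reader of newly deposited histones, passed the limit in TS-RIP only (-0.96 and -1.80), as did LMNB2 (-0.83 and -1.23). CHAF1B, the partner of CHAF1A, was nearer to 0 (-0.17 and -0.15).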
